A study of Mus musculus with 5 samples.

Results

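A set of 36 genes of DNA replication and S phase was followed on 5 mouse expression arrays that carry 37074 gene names in all. The genes were chosen by name for their function, with earlier results of these data known, and each was read from the probe with the highest mean signal over the 5 arrays. All 36 had a probe. The set holds 10 genes of helicase loading, 5 of helicase activation, 11 of synthesis at the fork, 4 of nucleotide supply, 3 of chromatin assembly and 3 of G1/S control. The arrays held liver sinusoidal endothelial cells (LSECs) from mouse liver, tumor endothelial cells (TECs) from orthotopic HAK-1B, KYN-2 and Hepa1-6 tumors, and cultured Hepa1-6 cells, with 1 array for each condition. The labels write the tumor lines as HAK1B, KYN2 and Hepa1-6. The first of these and KYN-2 come from human liver cancer, and Hepa1-6 comes from a hepatoma of the mouse strain C57L. The labels give C57BL/6 as the strain of the LSECs and of all 3 TECs, with no age, sex, genotype or treatment. The methods name young females, C57BL/6 or nude BALB/c, and nude mice lack T cells. TECs were the cells of a digested tumor that magnetic beads against mouse CD31 held back. How many mice stand behind an array was not given in the sources used here.

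Each TEC comes from a different tumor line, so the spread over the 3 TECs is a spread between lines and not between animals. The LSEC array was on 1 slide, the 3 TECs were on another and the Hepa1-6 cells were on the last, and the effects of slide and of group cannot be told apart. Probes well above background made up 44.6% to 57.6% of 56605 on 4 arrays and 78.1% on the Hepa1-6 TEC array, and precision is limited by how few arrays there are. All 8 endothelial markers were well above background on LSEC and on the 3 TECs, and none was on the Hepa1-6 cells. The summed signal of these 8 markers was 150108 on LSEC, between 22025 and 44321 on the TECs and 132 on the Hepa1-6 cells. In bulk samples such as these, fewer cells of a type and less RNA per cell cannot be told apart.

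DNA replication is prepared in G1, when the origin recognition complex, with Cdc6 and Cdt1, loads a ring of Mcm proteins onto DNA. In S phase, Cdc45 and the GINS complex join the ring and turn it into the active helicase, and polymerases, the sliding clamp Pcna and its loader copy both strands. Most of these genes are transcribed from late G1 by E2F factors, which the retinoblastoma family holds in check until cyclin E and its kinase act. The sinusoidal endothelium of a healthy adult liver rarely divides, whereas the vessels of a growing tumor do.

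E2F factors bind short GC-rich sites close to transcription starts. The letters TTTCGCGC, TTTGGCGC, TTTCCCGC and TTTGCCGC were searched on both strands of RefSeq promoter windows of GRCm38.p6, which hold 250 bases before the start and 50 after it. Windows were found for 31 of the 36 genes, and 13 of these held such a motif (41.9%), against 2.60% of 27025 genes with a window. Of 64 other replication genes, 52 had a window and 16 held the motif (30.8%). The letters CCAAT stood in 18 of the 31 windows (58.1%) and in 41.1% of all, and TTTGAA stood in 4 of the 31 (12.9%) and in 20.2% of all. A match of letters is not a measured binding site. The 250 bases before the start are shown for 6 genes, 5′ to 3′ on the strand of the gene, with the E2F motifs in capitals. Orc1, Cdc6, Mcm5 and Mcm6 are shown as the genes of helicase loading with a single window that hold the motif before the start. Pola1 is shown because it holds the motif and lay below LSEC on 2 TECs, and Ccne1 because its ratio to LSEC was high while these letters are not in its stretch.
Orc1: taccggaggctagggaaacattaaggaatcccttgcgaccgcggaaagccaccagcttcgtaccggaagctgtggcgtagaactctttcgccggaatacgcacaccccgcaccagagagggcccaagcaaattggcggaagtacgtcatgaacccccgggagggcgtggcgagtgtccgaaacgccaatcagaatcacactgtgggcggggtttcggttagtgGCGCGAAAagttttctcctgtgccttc
Cdc6: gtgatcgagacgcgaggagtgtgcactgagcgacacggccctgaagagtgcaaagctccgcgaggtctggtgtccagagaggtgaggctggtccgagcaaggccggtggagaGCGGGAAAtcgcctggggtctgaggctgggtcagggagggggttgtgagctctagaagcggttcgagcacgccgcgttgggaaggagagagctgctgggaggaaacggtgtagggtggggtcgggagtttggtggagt
Mcm5: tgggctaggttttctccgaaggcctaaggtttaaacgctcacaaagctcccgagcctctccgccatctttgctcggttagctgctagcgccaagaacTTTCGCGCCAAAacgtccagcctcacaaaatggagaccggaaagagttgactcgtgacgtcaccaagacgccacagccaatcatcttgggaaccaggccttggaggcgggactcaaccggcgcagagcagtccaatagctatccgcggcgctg
Mcm6: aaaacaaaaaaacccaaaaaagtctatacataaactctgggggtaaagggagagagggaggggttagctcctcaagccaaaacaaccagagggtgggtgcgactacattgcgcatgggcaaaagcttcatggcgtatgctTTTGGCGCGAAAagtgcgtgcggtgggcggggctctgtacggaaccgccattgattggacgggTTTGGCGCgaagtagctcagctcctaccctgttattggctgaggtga
Pola1: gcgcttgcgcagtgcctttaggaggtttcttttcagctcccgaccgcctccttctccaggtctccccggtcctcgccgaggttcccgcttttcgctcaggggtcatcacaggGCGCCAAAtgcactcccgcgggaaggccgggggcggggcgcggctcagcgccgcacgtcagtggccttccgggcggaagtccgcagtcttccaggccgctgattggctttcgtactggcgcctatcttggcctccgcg
Ccne1: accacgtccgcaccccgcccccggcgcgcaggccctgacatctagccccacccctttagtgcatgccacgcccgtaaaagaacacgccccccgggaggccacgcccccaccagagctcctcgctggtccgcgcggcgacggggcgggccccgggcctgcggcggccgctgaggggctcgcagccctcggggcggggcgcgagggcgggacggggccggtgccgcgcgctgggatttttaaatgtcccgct
On GRCm38.p6 the stretch of Orc1 lies at chr4:108579204-108579453 (+), that of Cdc6 at chr11:98907901-98908150 (+) and that of Mcm5 at chr8:75109259-75109508 (+). The stretch of Mcm6 lies at chr1:128359706-128359955 (-), that of Pola1 at chrX:93632156-93632405 (-) and that of Ccne1 at chr7:38107491-38107740 (-). In Mcm5, and at the more distant place in Mcm6, motifs on opposite strands overlap. Cdt1, Mcm3, Mcm7, Gins3, Rfc3, Pold1, Lig1 and Uhrf1 held the motif too, some of them only after the start. Within the set, the median of the mean log2 ratio of the TECs to LSEC was 1.19 for the 13 genes with the motif and 1.21 for the 18 with a window and no motif. Across all genes kept on the endothelial arrays that had a window, 13.9% of 545 with the motif and 8.19% of 15073 without it were at least 1.5-fold higher than LSEC in all 3 TECs.

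Most of the 36 genes were higher in TECs than in LSEC, by different amounts in the 3 lines. Ratios are of quantile-normalized signals, and a log2 level is the log2 of such a signal. A gene was called higher at a ratio of 1.5 or more, the ratio of the study's own rule. In HAK-1B TEC, 19 of the 36 genes reached this ratio, against 26.6% of all genes. In KYN-2 TEC, 23 of 36 did, against 26.0% of all genes, and in Hepa1-6 TEC 30 of 36 did, against 35.3%. The 30 include Ccne2, which was not well above background on LSEC and is not shown to reach 1.5-fold. The median log2 ratio of the 36 genes to LSEC was 0.69 in HAK-1B TEC, was 1.13 in KYN-2 TEC and was 1.97 in Hepa1-6 TEC, while the median of all genes was -0.00, -0.05 and 0.09. The 19 genes of HAK-1B TEC reached 1.5-fold in the other two TECs as well, so 19 of 36 passed in all 3, against 7.92% of all genes, and the same 19 also passed in the Hepa1-6 cells (4.87% of all genes passed on all 4 arrays). A ratio above 1 in all 3 TECs was seen for 30 of 36 genes (27.0% of all genes). Ratios of 0.66 or less were seen for Orc6 and Mcm3 in HAK-1B TEC (27.0% of all genes), for Pola2 in KYN-2 TEC (28.5% of all genes) and for none of the 36 in Hepa1-6 TEC (30.9% of all genes). Scaling each array by its 75th percentile in place of quantile normalization raised the median of all genes in Hepa1-6 TEC to 0.43, with 46.4% of genes higher and 21.7% lower, and that of the 36 genes was then 1.88. The 3 comparisons share the LSEC array, so they do not count as independent repeats.

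**Figure D1:**
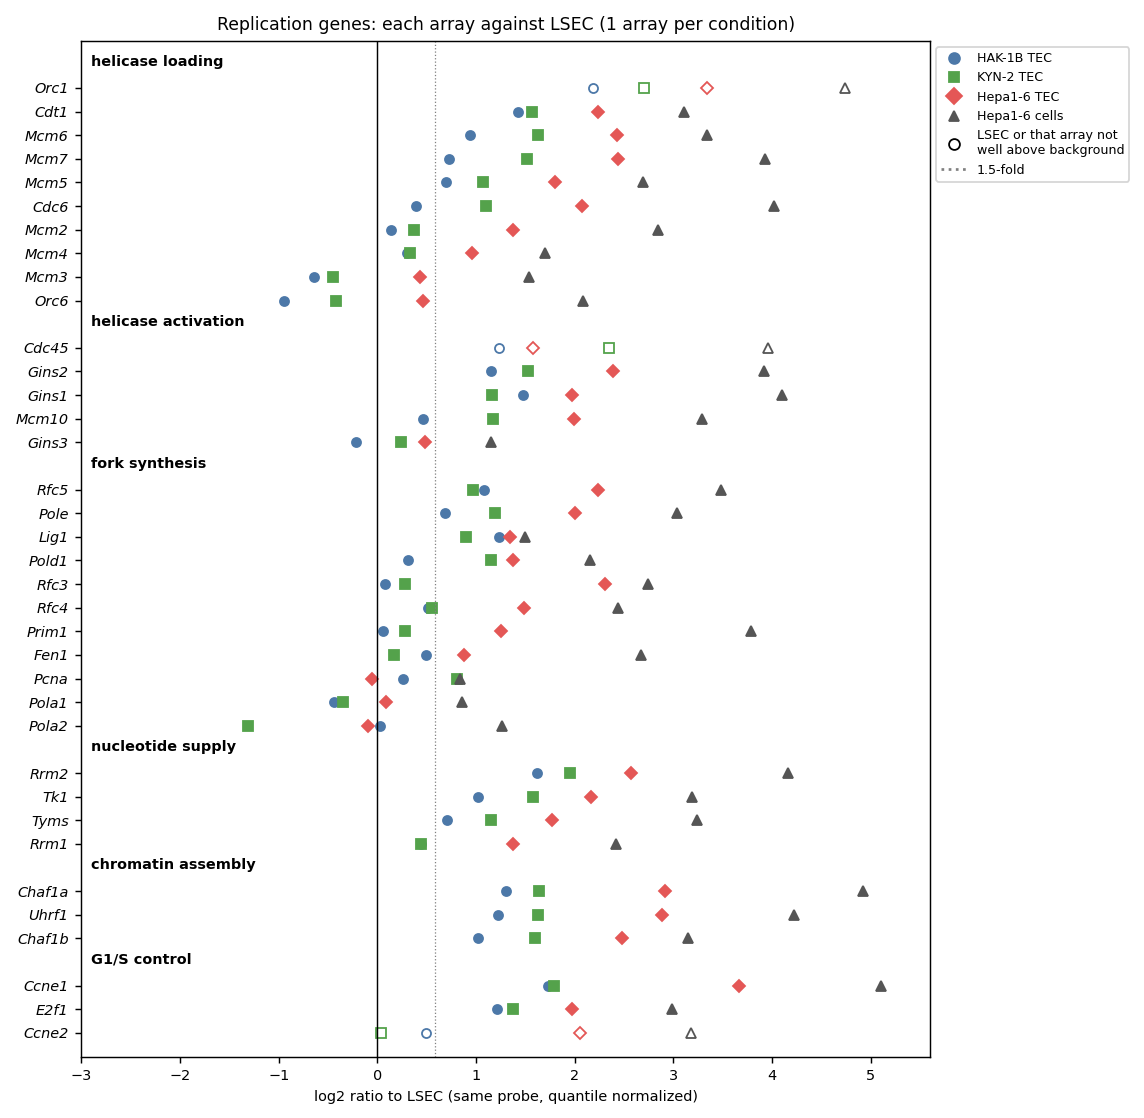
Log2 ratio to LSEC (x axis) of each of the 36 genes (y axis, by role) on the HAK-1B TEC, KYN-2 TEC, Hepa1-6 TEC and Hepa1-6 cell arrays, 1 array each. Open symbols mark ratios in which LSEC or that array was not well above background, and the dotted line marks 1.5-fold. The Hepa1-6 cells lie farthest to the right for every gene, and Orc6, Mcm3, Gins3, Pcna, Pola1 and Pola2 have a TEC on the left of 0.

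The second condition of the study's rule, a Z-score of 2 or more among all probes compared, was hard to reach for these genes. It asked for 7.25-fold in HAK-1B TEC, 6.79-fold in KYN-2 TEC and 11.4-fold in Hepa1-6 TEC. Ccne1 in Hepa1-6 TEC passed both parts at 12.7-fold (4.48% of all genes passed there), and no other of the 36 passed in any TEC (3.13% of all genes passed in HAK-1B TEC, 3.67% passed in KYN-2 TEC and 0.420% passed in all 3). limma, fitted to the 3 TECs against the LSEC array with 2 residual degrees of freedom, gave no gene an adjusted p under 0.05 (0.00% of 26905 genes). At an unadjusted p under 0.05 it gave 4 of the 36 as higher (Orc1, Cdt1, Gins1 and Rrm2), against 3.29% of all genes, and none as lower (5.87% of all genes). That count was 2 when the HAK-1B TEC array was left out, 10 when Hepa1-6 TEC was and 1 when KYN-2 TEC was. The shares of all genes were then 2.69%, 5.82% and 1.90%. With normexp background correction, 12 of the 36 passed the ratio and the Z-score in Hepa1-6 TEC, against 3.74% of all genes. With a single LSEC array, the differences below are sizes and not shown effects.

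**Figure D2:**
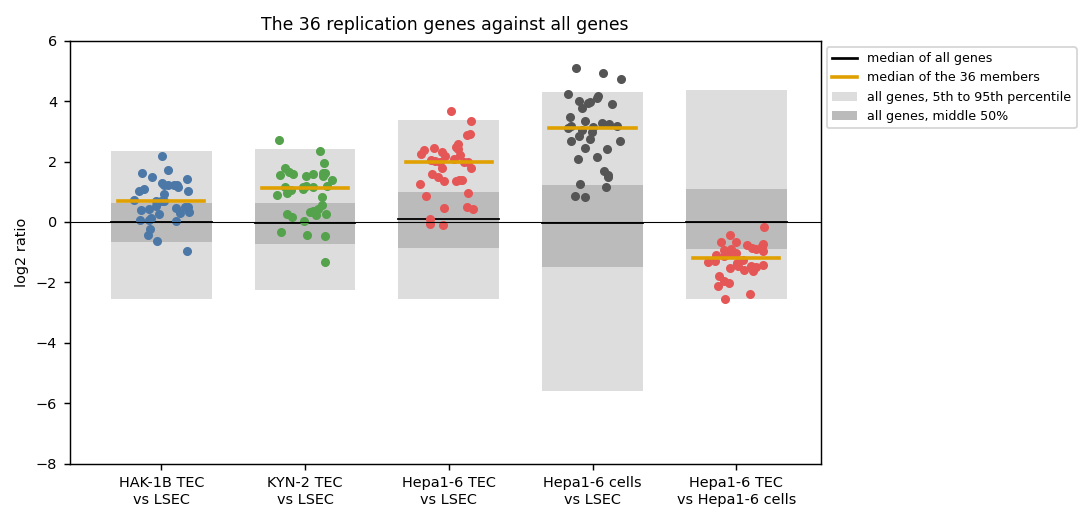
Log2 ratios (y axis) of the 36 genes in 5 comparisons (x axis, 1 array against 1 array), with 1 point per gene over grey bars that span the 5th to 95th percentile and the middle 50% of all genes. The medians of the 36 genes (0.69, 1.13 and 1.97 in the TECs and 3.13 in the Hepa1-6 cells) stand above the medians of all genes, and in the comparison of Hepa1-6 TEC with Hepa1-6 cells the median is -1.19.

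In helicase loading, Orc1, Cdt1 and Mcm6 had the largest differences, and its 10 genes had a median of the mean log2 ratio of 1.19. Of the 10, 5 were at least 1.5-fold higher than LSEC in all 3 TECs (Orc1, Cdt1, Mcm5, Mcm6 and Mcm7). The share of all genes was 7.92%, which also stands beside the counts of the other roles below. Orc1, the largest subunit of the origin recognition complex, was not well above background on LSEC. Its log2 level was 6.48 on HAK-1B TEC, 7.01 on KYN-2 TEC, 7.65 on Hepa1-6 TEC and 9.04 on the Hepa1-6 cells. Against the lowest LSEC signal that was well above background, Orc1 was at least 3.50-fold higher in HAK-1B TEC, at least 5.02-fold in KYN-2 TEC and at least 7.83-fold in Hepa1-6 TEC. The size for Orc1 depended on the probe and on the background correction. Its 2 further probes, dim on LSEC too, had mean log2 ratios of 0.19 and 0.49, with Hepa1-6 TEC at -0.43 and 0.17, and normexp gave the brightest probe 1.20 in place of 2.74. Such a bound sets the level in the bright sample against the higher of that lowest signal and the gene's own signal on LSEC.

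Cdt1, the factor that brings the Mcm ring to the origin and is destroyed once S phase begins, had a log2 level of 10.66 on LSEC, 12.08 on HAK-1B TEC, 12.22 on KYN-2 TEC, 12.89 on Hepa1-6 TEC and 13.77 on the Hepa1-6 cells. The 3 TECs lay close together and well apart from LSEC, at a mean log2 ratio of 1.74 ± 0.44 (SD, n = 3). limma gave Cdt1 an adjusted p of 0.559. Mcm6, a subunit of the helicase ring, had a log2 level of 11.44 on LSEC, 12.38 on HAK-1B TEC, 13.07 on KYN-2 TEC, 13.87 on Hepa1-6 TEC and 14.78 on the Hepa1-6 cells. Its level differed by steps of similar size over the arrays in this order, and its mean log2 ratio was 1.67 ± 0.74 (SD, n = 3). The subunits of the ring were not equally raised in TECs. Mcm7 and Mcm5 had mean log2 ratios of 1.56 ± 0.86 and 1.19 ± 0.56, Mcm2 and Mcm4 had 0.63 ± 0.66 and 0.53 ± 0.37, and Mcm3 had -0.22 ± 0.58 (SD, n = 3). Cdc6, the ATPase that works with Orc1, was 1.31-fold higher in HAK-1B TEC, 2.15-fold in KYN-2 TEC and 4.21-fold in Hepa1-6 TEC.

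Orc6 and Mcm3 were the genes of helicase loading that lay below LSEC in some TECs. The log2 level of Orc6, the smallest subunit of the origin complex, was 11.29 on LSEC, 10.34 on HAK-1B TEC, 10.87 on KYN-2 TEC, 11.75 on Hepa1-6 TEC and 13.38 on the Hepa1-6 cells. Mcm3 stood at 13.10 on LSEC, 12.45 on HAK-1B TEC, 12.65 on KYN-2 TEC, 13.53 on Hepa1-6 TEC and 14.64 on the Hepa1-6 cells. In both genes the 2 TECs of human tumors were below LSEC and the TEC of the mouse tumor was above it. Of 3 further Mcm3 probes well above background on the endothelial arrays, 2 had a mean log2 ratio of 0.09 and the other had -0.35, so the sign of Mcm3 depended on the probe.

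The genes of helicase activation had a median of the mean log2 ratio of 1.54, and 3 of the 5 were at least 1.5-fold higher in all 3 TECs. Gins2, a subunit of the GINS complex, had a log2 level of 8.09 on LSEC, 9.23 on HAK-1B TEC, 9.62 on KYN-2 TEC, 10.48 on Hepa1-6 TEC and 12.00 on the Hepa1-6 cells. Gins1 stood at 7.76 on LSEC, 9.24 on HAK-1B TEC, 8.93 on KYN-2 TEC, 9.74 on Hepa1-6 TEC and 11.86 on the Hepa1-6 cells. Their mean log2 ratios were 1.69 ± 0.64 and 1.54 ± 0.41 (SD, n = 3). For both genes every TEC was above LSEC and below the cells. Gins3, a further subunit of the same complex, was already bright on LSEC and moved little, with 12.81 on LSEC, 12.59 on HAK-1B TEC, 13.05 on KYN-2 TEC, 13.29 on Hepa1-6 TEC and 13.96 on the Hepa1-6 cells. Cdc45, the partner of GINS in the active helicase, was not well above background on LSEC. Against its own dim LSEC signal, it was 2.36-fold higher in HAK-1B TEC, 2.98-fold in Hepa1-6 TEC and 5.10-fold in KYN-2 TEC. These sizes depended on the background correction. A further Cdc45 probe, measured on all 4 endothelial arrays, had a smaller mean log2 ratio of 0.51, and there Hepa1-6 TEC (-0.04) lay below HAK-1B TEC (0.62) and KYN-2 TEC (0.94). Mcm10, which helps to start the helicase, had a mean log2 ratio of 1.21 ± 0.76 (SD, n = 3).

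The machinery of the fork showed the lowest ratios of the 6 roles. Its median of the mean log2 ratio was 0.85, and 3 of 11 genes (Rfc5, Pole and Lig1) were at least 1.5-fold higher in all 3 TECs. Rfc5, a subunit of the clamp loader, had a log2 level of 10.26 on LSEC, 11.34 on HAK-1B TEC, 11.23 on KYN-2 TEC, 12.49 on Hepa1-6 TEC and 13.74 on the Hepa1-6 cells. The brightest Rfc5 probe was not borne out by 2 further probes of other transcripts, whose mean log2 ratios were -0.66 and -0.27. Pole, the catalytic subunit of the leading-strand polymerase, had 8.47 on LSEC, 9.15 on HAK-1B TEC, 9.66 on KYN-2 TEC, 10.47 on Hepa1-6 TEC and 11.50 on the Hepa1-6 cells. Lig1, the ligase that joins the fragments of the lagging strand, was 2.34-fold higher than LSEC in HAK-1B TEC, 1.86-fold in KYN-2 TEC, 2.54-fold in Hepa1-6 TEC and 2.83-fold in the Hepa1-6 cells. On this probe the 4 ratios were close together. A dimmer Lig1 probe, of another transcript, had a log2 ratio of 1.57 in the Hepa1-6 cells, against 0.22 to 0.48 in the TECs. The ratios of Rfc3, a further subunit of the clamp loader, were 1.05-fold in HAK-1B TEC, 1.21-fold in KYN-2 TEC, 4.94-fold in Hepa1-6 TEC and 6.70-fold in the Hepa1-6 cells. Rfc4 and Pold1, the catalytic subunit of the lagging-strand polymerase, had mean log2 ratios of 0.85 ± 0.55 and 0.95 ± 0.56 (SD, n = 3).

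Pcna, the sliding clamp, did not follow the other genes. The study stained its protein together with CD31 in tissue and reported more proliferating endothelial cells in tumor vessels than among LSECs. The levels here are of RNA from cells held back by beads, a different measure from staining. From expression arrays, the study also reported proliferative features among TEC-specific genes, after genes related to cancer cells were removed. The Pcna probe spans chr2:132075420-132075557 (-) on mm9, the build of the array design, and no annotation of that build was used here. The log2 level of Pcna was 13.38 on LSEC, 13.64 on HAK-1B TEC, 14.19 on KYN-2 TEC, 13.33 on Hepa1-6 TEC and 14.22 on the Hepa1-6 cells. Pcna was bright on every array and highest among the TECs in KYN-2 TEC, whereas Hepa1-6 TEC, which led in most of the 36 genes, lay at LSEC. Its mean log2 ratio of 0.34 ± 0.44 (SD, n = 3) was within the spread between the TECs.

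The subunits of polymerase alpha, which lays down the primer with primase, stayed near LSEC or below it in TECs. Pola2, the regulatory subunit, had a log2 level of 7.90 on LSEC, 7.93 on HAK-1B TEC, 6.59 on KYN-2 TEC, 7.81 on Hepa1-6 TEC and 9.17 on the Hepa1-6 cells. KYN-2 TEC stood apart on this probe and on a further probe of the same transcript (log2 ratio -1.45). On 2 probes of other transcripts KYN-2 TEC was the nearest to LSEC (-0.02 and -0.50) and Hepa1-6 TEC was the lowest (-0.76 and -1.74). The mean log2 ratios of the 3 further probes were -0.62, -0.38 and -1.04. Pola1, the catalytic subunit, had 9.31 on LSEC, 8.87 on HAK-1B TEC, 8.96 on KYN-2 TEC, 9.40 on Hepa1-6 TEC and 10.17 on the Hepa1-6 cells. Both subunits were at least 1.5-fold higher than LSEC in the Hepa1-6 cells and in no TEC. Prim1, the primase subunit, and Fen1, the nuclease that trims lagging-strand fragments, had mean log2 ratios of 0.53 ± 0.64 and 0.51 ± 0.35 (SD, n = 3), against log2 ratios of 3.79 and 2.67 in the Hepa1-6 cells.

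In nucleotide supply the median of the mean log2 ratio was 1.40. Of its 4 genes, 3 were at least 1.5-fold higher in all 3 TECs (Tyms, Rrm2 and Tk1). Rrm2, the subunit of ribonucleotide reductase that is made in S phase, had a log2 level of 9.11 on LSEC, 10.73 on HAK-1B TEC, 11.06 on KYN-2 TEC, 11.68 on Hepa1-6 TEC and 13.27 on the Hepa1-6 cells. Its mean log2 ratio was 2.05 ± 0.48 (SD, n = 3), with an adjusted p of 0.518 in limma. Rrm1, the large subunit of the same enzyme, had 10.15 on LSEC, 10.59 on HAK-1B TEC, 10.59 on KYN-2 TEC, 11.52 on Hepa1-6 TEC and 12.57 on the Hepa1-6 cells. So the S-phase subunit differed more from LSEC than the large subunit in each TEC. Tk1, the cytosolic thymidine kinase, stood at 9.54 on LSEC, 10.55 on HAK-1B TEC, 11.12 on KYN-2 TEC, 11.71 on Hepa1-6 TEC and 12.73 on the Hepa1-6 cells. Tyms, which makes thymidylate, had a mean log2 ratio of 1.21 ± 0.54 (SD, n = 3), and further probes gave 0.56 and 1.52.

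All 3 genes of chromatin assembly were at least 1.5-fold higher in all 3 TECs, and their median of the mean log2 ratio, 1.91, was the highest of the 6 roles. Chaf1a, the large subunit of the histone chaperone that travels with Pcna, had a log2 level of 7.19 on LSEC, 8.50 on HAK-1B TEC, 8.84 on KYN-2 TEC, 10.11 on Hepa1-6 TEC and 12.12 on the Hepa1-6 cells. Chaf1b, the middle subunit, had 9.41 on LSEC, 10.43 on HAK-1B TEC, 11.01 on KYN-2 TEC, 11.90 on Hepa1-6 TEC and 12.56 on the Hepa1-6 cells. Uhrf1, which brings the maintenance DNA methyltransferase to new DNA, had 9.11 on LSEC, 10.34 on HAK-1B TEC, 10.74 on KYN-2 TEC, 12.00 on Hepa1-6 TEC and 13.34 on the Hepa1-6 cells. The 3 genes went together, with log2 ratios to LSEC of 1.02 to 1.31 in HAK-1B TEC, 1.59 to 1.64 in KYN-2 TEC and 2.48 to 2.91 in Hepa1-6 TEC.

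Of G1/S control, Ccne1 and E2f1 were at least 1.5-fold higher in all 3 TECs. Ccne1, cyclin E1, had a log2 level of 7.69 on LSEC, 9.41 on HAK-1B TEC, 9.48 on KYN-2 TEC, 11.35 on Hepa1-6 TEC and 12.79 on the Hepa1-6 cells. The TECs of both human tumors agreed within 0.06 while Hepa1-6 TEC stood far above them, and the mean log2 ratio of Ccne1 was 2.39 ± 1.10 (SD, n = 3). E2f1, an activating E2F factor, had 8.72 on LSEC, 9.93 on HAK-1B TEC, 10.10 on KYN-2 TEC, 10.70 on Hepa1-6 TEC and 11.71 on the Hepa1-6 cells, a mean log2 ratio of 1.52 ± 0.40 (SD, n = 3). Ccne2, cyclin E2, was well above background on Hepa1-6 TEC alone, and there it was at least 1.05-fold higher than LSEC, which leaves its ratios without a size.

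The order of the arrays was shared by much of the set. Of the 33 genes that were well above background on all 5 arrays, 23 stood higher at each step from LSEC to HAK-1B TEC, KYN-2 TEC, Hepa1-6 TEC and the Hepa1-6 cells, against 5.98% of all genes so measured. Hepa1-6 TEC was the highest TEC for 31 of the 33 (36.9% of all genes), and LSEC was the lowest of the 5 arrays for 27 of them (25.7% of all genes). All 33 were highest in the Hepa1-6 cells (40.3% of all genes). The genes out of this order were Orc6, Mcm3, Gins1, Gins3, Pcna, Rfc5, Pola1, Pola2, Fen1 and Lig1, of which 6 belong to the fork. On the further probes of these genes the order was less regular, with Hepa1-6 TEC the highest TEC for 14 of 24 probes measured on the endothelial arrays, KYN-2 TEC for 8 (among them probes of Mcm6, Mcm7 and Gins1) and HAK-1B TEC for 2. With 1 array for each condition, which neighbours in this order differ beyond the spread between animals was not measured.

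Between TECs, the step from the human tumor lines to Hepa1-6 was the large one. Against HAK-1B TEC, 29 of the 36 genes were at least 1.5-fold higher in Hepa1-6 TEC (32.0% of all genes), at a median log2 ratio of 1.13. Against KYN-2 TEC, 30 of 36 were (30.9% of all genes), at a median of 0.81, while Cdc45 and Pcna had ratios of 0.66 or less (26.8% of all genes). Both counts include Ccne2, which was not well above background on HAK-1B TEC and KYN-2 TEC. With 75th percentile scaling, the median of the 36 genes in Hepa1-6 TEC was 0.97 against HAK-1B TEC and 0.72 against KYN-2 TEC. The median of all genes was then 0.32 and 0.28, with 42.8% and 41.6% of genes higher, so part of this step was shared by all genes under that scaling. Between KYN-2 TEC and HAK-1B TEC the median log2 ratio was 0.33, and 6 of 36 genes (Cdc6, Mcm6, Mcm7, Mcm10, Cdc45 and Pold1) were at least 1.5-fold higher in KYN-2 TEC (20% of all genes), a share near that of all genes. Pola2 had a ratio of 0.66 or less there (18.7% of all genes).

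The Hepa1-6 cells, a dividing culture, give the levels of these genes in cultured hepatoma cells. No array held hepatoma cells taken from a tumor. Against LSEC, 35 of the 36 genes were at least 1.5-fold higher in the cells (36.2% of all genes), at a median log2 ratio of 3.13. None passed the Z-score, which asked for 39.8-fold there (2.57% of all genes passed). The largest measured ratios were those of Ccne1 and Chaf1a, 34.3-fold and 30.4-fold, and the smallest was that of Pcna, 1.79-fold. In Hepa1-6 TEC the median log2 ratio to the cells was -1.19, and 34 of 36 genes, with Ccne2 dim on the cells among them, had a ratio of 0.66 or less (32.4% of all genes).

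Some markers of hepatoma cells were high on the Hepa1-6 TEC array. The log2 level of Afp, a fetal liver protein made by hepatoma cells, was 15.38 on Hepa1-6 TEC and 15.92 on the Hepa1-6 cells, against 7.80 on LSEC, 6.21 on HAK-1B TEC and 8.06 on KYN-2 TEC. HAK-1B and KYN-2 are human lines and the probes are of mouse genes, so low signal there does not measure the tumor cells of these samples. Binding of human RNA to the mouse probes was not tested. All 8 hepatocyte or hepatoma markers were well above background on LSEC, KYN-2 TEC and Hepa1-6 TEC, 6 of 8 were on the Hepa1-6 cells and 5 of 8 were on HAK-1B TEC. Alb and Fgb, like Afp, were higher on Hepa1-6 TEC (15.54 and 13.52) than on LSEC (12.97 and 10.12). Apoa1 and Ttr, dim on the cells, lay near LSEC on Hepa1-6 TEC (8.83 against 8.32 and 9.50 against 9.28). Serpina1b was lower on Hepa1-6 TEC (10.97) than on LSEC (12.46). Their median log2 level was 9.70 on LSEC, 6.36 on HAK-1B TEC, 7.92 on KYN-2 TEC, 12.25 on Hepa1-6 TEC and 11.28 on the Hepa1-6 cells. Their summed signal was 92711 on LSEC, 107053 on HAK-1B TEC, 80343 on KYN-2 TEC, 258261 on Hepa1-6 TEC and 119320 on the Hepa1-6 cells, and Trf, with a log2 level from 15.03 to 17.22, made up most of it on the endothelial arrays. A set of 32 probes, bright on the Hepa1-6 cells (the top 10% of signal) but not above the background limit on the LSEC, KYN-2 TEC and HAK-1B TEC arrays, was set beside the replication genes. Their median signal on Hepa1-6 TEC was 7.76% of that on the cells, with the middle 50% of the probes from 2.70% to 21.7%. The median was 13.4% over the 133 such probes of the top 20%. On the same scale of background-subtracted signal, the 35 replication genes well above background on the cells had a median of 33.1%, from 11.5% for Prim1 to 60.2% for Lig1. All 35 lay above the median of the 32 probes, and Prim1, Gins1, Chaf1a, Fen1, Cdc6 and Orc6 lay within the middle 50% of the probes. The probes were chosen for high signal on the cells and for signal under the background limit on the other endothelial arrays. The genes were not, so their higher percent could be set by that choice and does not size tumor cell RNA. The part of tumor cell RNA in the replication genes of Hepa1-6 TEC was not tested.

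**Figure D3:**
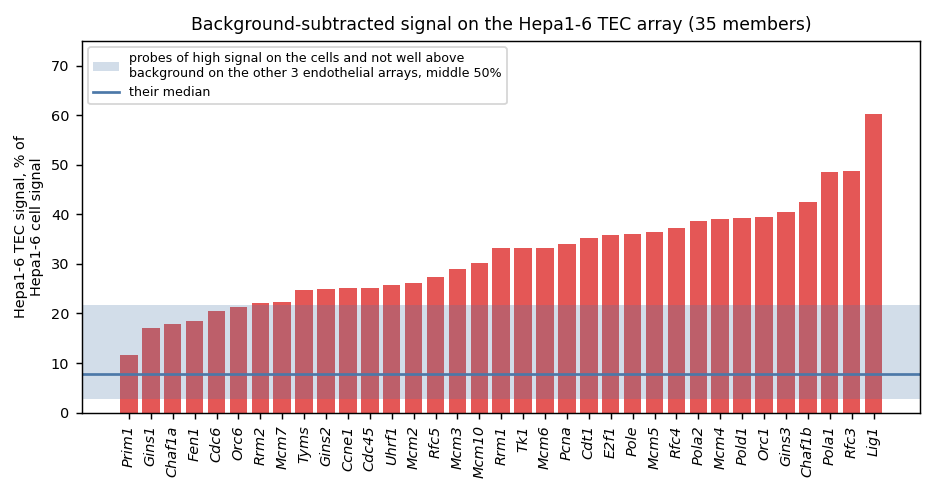
Background-subtracted signal of each of 35 replication genes (x axis, sorted) on the Hepa1-6 TEC array as a percent of the signal on the Hepa1-6 cell array (y axis), 1 array each. The blue line and band give the median (7.76%) and the middle 50% (2.70% to 21.7%) of 32 probes that were bright on the cells and not well above background on the other endothelial arrays. All 35 bars reach above the line, but most of these genes, unlike the probes, had signal on the other endothelial arrays.

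The excess over LSEC can be set against that of the Hepa1-6 cells in each TEC. On the linear scale after normalization, the median over the 35 genes was 33.9% of the excess of the cells in Hepa1-6 TEC, 13.1% in KYN-2 TEC and 8.18% in HAK-1B TEC. Over all 7203 genes that were at least 1.5-fold higher in the cells than in LSEC, the same medians were 23.5%, 5.61% and 3.84%. On the brightest probes, Lig1 held the highest share in HAK-1B TEC, 73.5%, and in Hepa1-6 TEC, 84.1%, whereas its dimmer probe gave 10% and 19.9%. Pcna held the highest in KYN-2 TEC, 95.4%. Without the Hepa1-6 TEC array, 19 of 36 genes were at least 1.5-fold higher in the remaining TECs (15.3% of all genes), at a median of the mean log2 ratio of 0.91. That count could not change, because the 19 genes of HAK-1B TEC all passed in KYN-2 TEC.

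Markers of other cells differed between the arrays as well. The summed signal of 7 neutrophil markers was 2044 on LSEC, 141465 on HAK-1B TEC, 3662 on KYN-2 TEC and 27053 on Hepa1-6 TEC, with 5 of 7 well above background on LSEC and on KYN-2 TEC and 7 of 7 on the others. All 7 macrophage markers were well above background on the 4 endothelial arrays, with a summed signal between 387801 on Hepa1-6 TEC and 727221 on HAK-1B TEC. The 6 fibroblast and stellate cell markers summed to 3391 on LSEC, 5180 on HAK-1B TEC, 13570 on KYN-2 TEC, 34434 on Hepa1-6 TEC and 109751 on the Hepa1-6 cells. Most of the last 2 sums was Dcn, at a log2 level of 14.72 on Hepa1-6 TEC and 16.74 on the cells, where the 5 other markers were not well above background. Those 5 were highest in KYN-2 TEC, and Col1a1 was not well above background on LSEC. The 6 markers of T and NK cells summed to between 2348 on LSEC and 5544 on Hepa1-6 TEC, the 4 of B cells to between 2989 on Hepa1-6 TEC and 9926 on HAK-1B TEC, and the 6 erythroid markers to between 6095 on HAK-1B TEC and 238587 on LSEC. The 8 markers of LSECs summed to 790259 on LSEC and to between 78822 and 105279 on the TECs. The 8 housekeeping genes had median log2 levels from 16.26 to 16.63 over the 5 arrays. The part of these cells in the results was not tested.

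A list of 64 other genes of replication, sorted into the same roles, had lower ratios. Both lists were chosen with earlier results of these data known. The 64 also hold inhibitors and genes used outside S phase, so the gap between the lists is a description and not a test. Of these, 11 were at least 1.5-fold higher than LSEC in all 3 TECs (among them Recql4, Top2a, Ctps, Asf1b, E2f8 and Ccna2), and 4 had ratios of 0.66 or less in all 3 (Timeless, Asf1a, E2f4 and E2f6), against 7.92% and 12.8% of all genes. Their median of the mean log2 ratio was 0.31, against 1.20 for the 36 genes. In helicase loading, Gmnn, the inhibitor of Cdt1, had a mean log2 ratio of 0.75 ± 0.77 and Orc5 had -0.87 ± 0.69 (SD, n = 3). None of the 6 other genes of this role, the origin complex subunits Orc2 to Orc5 among them, was at least 1.5-fold higher in all 3 TECs. For so few genes, that is near the 7.92% of all genes. In helicase activation, Ticrr is needed to join Cdc45 to the ring and was named after its values were seen. It was not well above background on LSEC. Against its own dim LSEC signal, it was 3.19-fold higher in HAK-1B TEC, 3.96-fold in KYN-2 TEC and 14.0-fold in Hepa1-6 TEC. It was the only 1 of the 64 to pass the ratio and the Z-score against LSEC in a TEC, and it passed in Hepa1-6 TEC (4.48% of all genes). None of the 64 passed in HAK-1B TEC (3.13% of all genes) or in KYN-2 TEC (3.67% of all genes). Of the genes of this role that were measured on LSEC, Recql4, a helicase that acts at origins, had 1.08 ± 0.46 and Dbf4, the activator of the kinase Cdc7, had -0.53 ± 0.74. At the fork, Top2a, which untangles copied DNA, had 2.48 ± 0.83 and Timeless, a fork protection factor, had -1.54 ± 0.35. These belonged to a role in which 1 of 19 other genes was at least 1.5-fold higher in all 3 TECs, near the 7.92% of all genes.

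Pairs of related genes parted in the other list. Asf1b, the histone chaperone of dividing cells, had a mean log2 ratio of 1.72 ± 0.31, whereas its relative Asf1a had -1.81 ± 1.18 (SD, n = 3). Ctps, which makes CTP, had 1.85 ± 1.05, and Rrm2b, the ribonucleotide reductase subunit used outside S phase, had -0.48 ± 0.18 against 2.05 for Rrm2. Among E2F factors, E2f8 and E2f4 were the extremes. The log2 level of E2f8, itself an E2F target, was 6.48 on LSEC, 8.83 on HAK-1B TEC, 8.61 on KYN-2 TEC, 9.65 on Hepa1-6 TEC and 10.74 on the Hepa1-6 cells. E2f4, which works mostly as a repressor in resting cells, had 8.04 on LSEC, 6.48 on HAK-1B TEC, 6.32 on KYN-2 TEC, 5.41 on Hepa1-6 TEC and 8.11 on the Hepa1-6 cells. E2f8 stood above LSEC on every array, and E2f4 stood below LSEC on the TECs and level with it on the cells. limma gave adjusted p of 0.486 for E2f8 and 0.556 for E2f4, and no gene of this list passed.

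**Figure D4:**
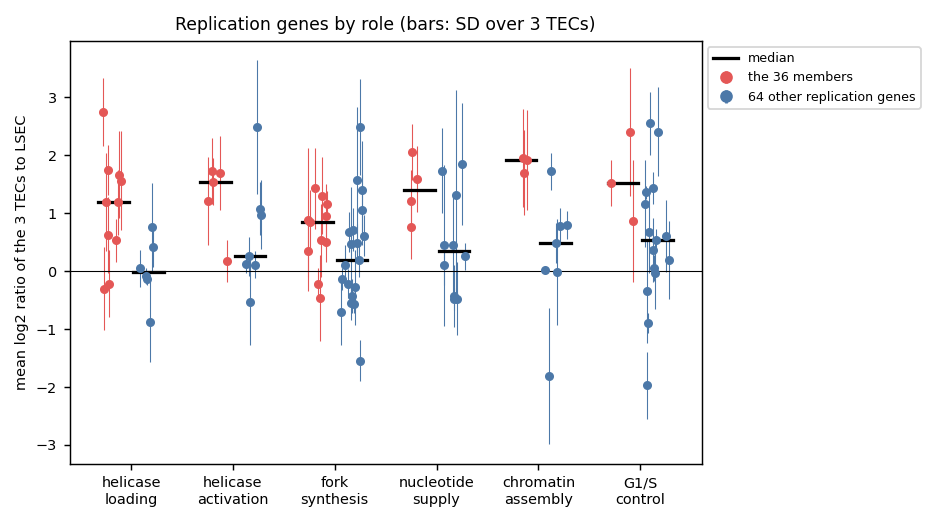
Mean log2 ratio of the 3 TECs to LSEC (y axis) for the 36 genes (red) and 64 other replication genes (blue) by role (x axis), with 1 point per gene, error bars of the SD over the 3 TECs and black lines for medians. The medians of the 36 genes run from 0.85 at the fork to 1.91 in chromatin assembly and lie above those of the other genes in each role. Both lists were chosen with earlier results of these data known.

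The 36 genes had 68 probes, and 20 of the genes had more than 1. Of 24 further probes that were well above background on the 4 endothelial arrays, 20 had the same sign of the mean log2 ratio as the probe used. The 4 that did not were 2 of Mcm3 and 2 of Rfc5. With the mean over all probes of a gene, the mean log2 ratio of Rfc5 was 0.17 in place of 1.43, that of Lig1 was 0.74 in place of 1.16, that of Tk1 was 0.97 in place of 1.59 and that of Chaf1b was 0.59 in place of 1.70. For Tk1 and Chaf1b, this mean takes in probes that were not well above background on all 4 endothelial arrays. The 2 further Tk1 probes that were had mean log2 ratios of 1.36 and 1.24.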

How the data were processed

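Cy3-labelled RNA was measured on 5 mouse 60-mer Agilent arrays. The authors deposited scanner files with linear intensity values: a processed signal already corrected for background, and mean and background signals. They also deposited a table of normalized intensity values, linear, whose columns hold 1 set of numbers in different orders, used here as an alternative. The submitters' processing notes give Feature Extraction 9.5.1.1 and the file headers 10.7.1.1. The methods name a NucleoSpin kit and Huh-7 tumors, where the labels give TRIzol and HAK1B.

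Here log2 processed signals were quantile-normalized over the 5 arrays. Outlier spots and lincRNA probes were left out, and a probe was kept in a comparison if present on at least 1 of its arrays. The brightest probe stood for a gene. Genes were counted at a ratio of 1.5 or 0.66, with and without a Z-score of 2 or -2. All kept probes were fitted with limma 3.58.1 (R 4.3.3), with Benjamini-Hochberg adjustment. The lone LSEC array was assumed to vary like the TECs. Each role's largest and smallest differences among genes well above background on the 4 endothelial arrays, Pcna, genes dim on LSEC and genes with a ratio below 1 were named. The genes and lists were chosen with earlier results of these data known. Alternatives changed the scaling, background correction, probe, flag filter, size rule and arrays, and scripts were tested on simulated data. Emr1 and Hbb-bs of the marker lists had no probe under that name. Promoter sequences are RefSeq's, of GRCm38.p6. Python 3.11.15, numpy 2.4.6, pandas 2.3.3 and matplotlib 3.10.9 were used.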

Additional observations from a re-analysis of the deposited data

Results flagged for a closer look

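In 6 of the 36 genes, the TECs of different tumor lines lay on both sides of the shared LSEC array, against 44.5% of all genes. The highest and lowest log2 ratios to LSEC among the 3 TECs lay 1.41 apart for Orc6, 1.08 for Mcm3, 0.71 for Gins3, 0.86 for Pcna, 0.53 for Pola1 and 1.34 for Pola2. Hepa1-6 TEC was the highest in Orc6, Mcm3, Gins3 and Pola1. KYN-2 TEC was the highest in Pcna, and HAK-1B TEC was the highest in Pola2. Some ratios lay close to 0, such as -0.05 for Pcna and 0.09 for Pola1 in Hepa1-6 TEC and 0.03 for Pola2 in HAK-1B TEC. On the further probes of Pola1 and Pola2, all 3 TECs were below LSEC. The difference between lines was not tested, since each line has 1 array.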

How the results depend on the processing

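The count of genes that passed both the ratio and the Z-score depended most on the processing. In Hepa1-6 TEC it was 1, and it became 0 with 75th percentile scaling or with quantile normalization of each pair, 12 with normexp background correction, 2 with no flag filter and 4 with probes present on every array, while the share of all genes ran from 3.48% to 4.77%. In the Hepa1-6 cells it was 0, and it became 1 with 75th percentile scaling, 8 with normexp, 3 with no flag filter and 9 with probes present on every array (2.37% to 2.98% of all genes). In KYN-2 TEC it was 0, and it became 2 with no flag filter (3.34% of all genes). By construction, dropping the Z-score raised it to 19 in HAK-1B TEC, 30 in Hepa1-6 TEC, 23 in KYN-2 TEC, 35 in the Hepa1-6 cells and 19 in all 3 TECs, with the shares of all genes given in the report. A ratio of 2 alone gave 14, 28, 20, 33 and 12, against 17.5%, 25%, 16.9%, 28.2% and 4.56% of all genes. The 4 genes with an unadjusted p under 0.05 in limma became 9 with normexp (3.98% of all genes higher), 7 with no flag filter (3.15%) and 8 with probes present on every array (4.61%), and ranged from 1 to 10 when each TEC was left out. The cause was not tested in these cases. The count at least 1.5-fold higher in all TECs ranged from 19 to 22 (10.4% to 15.3% of all genes) and the median of the mean log2 ratio from 0.91 to 1.52 when each TEC was left out. For the 64 other replication genes, where this alternative was chosen after seeing the data, the count ranged from 14 to 16. Orc6 went from -0.30 to 0.0197 without HAK-1B TEC and to -0.68 without Hepa1-6 TEC. The mean log2 ratio of Orc1 was 1.20 with normexp and 1.14 over all its probes, and that of Cdc45 was 0.68 and 1.12. The other 175 values of counts and medians, and 423 of single genes, kept their direction and moved less than the spread between TECs or, for counts, less than 1.5 times. No paired analysis was possible because there is 1 array for each condition and the labels give no shared replicate numbers. The slide as a block could not be fitted, since each slide holds 1 group. Genes near background on LSEC have only bounds or ratios to a dim signal.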
